A study of Mus musculus with 6 samples.

Results

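The T-cell receptor alpha and delta genes share 1 locus on mouse chromosome 14, in which the delta segments lie nested among the alpha segments. The segments examined are all genes of the deposited table whose GENCODE M21 symbol starts with Trav, Traj, Trac, Trdv, Trdd, Trdj or Trdc, which came to 39 of the 21135 listed genes and 39 of the 200 such segments in the annotation. RNA was sequenced in 6 libraries of DN3 thymocytes, immature cells that have neither CD4 nor CD8, from C57BL/6 mice. Of these, 3 were wild type for NMe, a Notch-bound distal enhancer of Myc, and 3 were homozygous for mutations in GATA sites 1 and 2 of that enhancer. The labels give no age, sex or sorting markers, no other allele or treatment in either group, and do not say whether animals were pooled. They number the libraries of each genotype without saying whether each is another animal, so p-values speak only of the spread among these libraries, which may be technical.

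A T-cell receptor chain is assembled by V(D)J recombination, in which the RAG recombinase joins a variable (V) segment, in delta also a diversity (D) segment, and a joining (J) segment, and splicing then links the joined exon to a constant region. The delta chain is rearranged in double-negative thymocytes, together with beta and gamma. The alpha chain is rearranged later, in double-positive cells, and a V-alpha to J-alpha join deletes the delta segments that lie between them. Unrearranged segments are also transcribed from their own promoters, and a count of reads per segment does not separate these germline RNAs from joined ones.

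Of the 39 segments, 25 had a mean of at least 10 normalised reads and were tested with limma, and 11 of these rose in the mutant while 0 fell. Across all 17815 tested genes 7.94% were called higher and 10.9% lower. With edgeR, which called 8.17% of its genes higher, the counts were also 11 and 0, and at an unadjusted p under 0.05 limma put 15 segments higher and 0 lower (15.9% and 17.5% of all tested genes). All 3 mutant libraries lay above all 3 wild-type libraries for 16 of the 25 (18.0% of all tested genes) and below them for 0 (20.3%), and 22 of the 25 changes were above 0 (52.1%). When library totals were made equal, the split over all genes was 1827 higher to 1646 lower in place of 1414 to 1938. The reads of the 39 segments summed to 12100 ± 1640 (SD, n = 3) per wild-type library and 22040 ± 3240 (n = 3) per mutant library, 1.82-fold more. The delta constant region Trdc, which held most of them, rose 1.75-fold, and without it the sum was 2.11-fold higher. The highest ratio among tested segments was that of the delta variable segment Trdv4, at 11.7-fold. That ratio rested on 10, 3 and 6 reads in the wild type against 92, 89 and 39 in the mutant. Trdv4 reached the mean needed for the test through its mutant libraries.

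**Figure D1:**
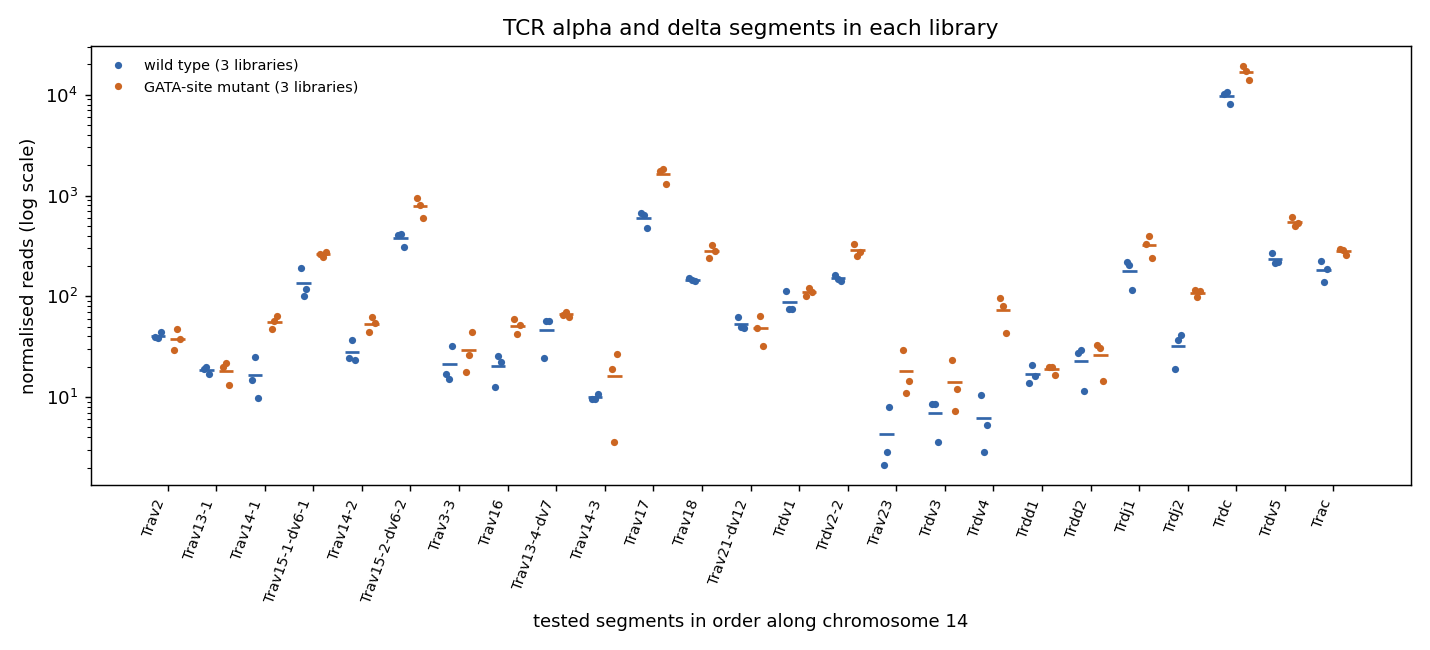
Normalised reads (log axis) of the 25 tested segments in each of 3 wild-type (blue) and 3 GATA-site mutant (orange) libraries, in order along chromosome 14, with a line at each group mean. Trdc has the most reads in every library, and the mutant points of Trdv4, Trdj2 and Trav17 lie clear of the wild-type points.

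Recovered reads came to 38.6 to 51.3 M per library, and the 39 segments took 0.0224% to 0.0289% of the reads of wild-type libraries and 0.0436% to 0.0562% of those of mutant libraries. All 11 markers of DN3 thymocytes were listed, and they summed to 265999.5 to 297058 normalised reads per wild-type library and 383053 to 436401 per mutant library. Of the 11, 7 were called higher, Rag1 was called lower, and Ptcra, Rag2 and Notch3 did not pass. The higher calls numbered 2 to 6 with 1 library left out, lowest without wild type replicate 3. Haemoglobin RNA stood apart in wild type replicate 2, where Hbb-bs had 3523 normalised reads against 0 to 22.3 in the other libraries. In bulk RNA, more cells of a type and more RNA per cell cannot be told apart.

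The sequences below are those of the delta D and J segments and of the ends of 8 V segments. V ends and D and J segments are the parts that meet when a chain is joined. Among the V segments, Trav17 and Trav2 are named as alpha segments only. They were read from GENCODE M21 transcripts on GRCm38, 5′ to 3′ on the coding strand. The D segments are 11 and 16 bases long.
Trdd1: atggcatatca
Trdd2: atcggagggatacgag
Trdj1: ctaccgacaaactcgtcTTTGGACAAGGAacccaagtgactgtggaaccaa
Trdj2: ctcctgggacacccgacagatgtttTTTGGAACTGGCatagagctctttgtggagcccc
In both J segments the capitals mark the codons for phenylalanine, glycine, any residue and glycine, the shared core of J segments, searched on the coding strand as a codon TTT, TTC or TGG, then GG, any 4 bases and GG. This pattern was present in 47 of 62 annotated alpha and delta J segments (75.8%). The D segments contribute bases between V and J in a joined delta chain.

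For each V segment the last 60 bases of its transcript are shown, with the codon of the conserved cysteine in capitals. It was found on the coding strand as TGT or TGC after TAT or TAC and 3 further bases, a pattern present in the last 60 bases of 129 of 134 annotated V segments (96.3%). The first 5 are V segments called higher in the mutant, and the last 3 are V segments whose groups overlapped.
Trdv4: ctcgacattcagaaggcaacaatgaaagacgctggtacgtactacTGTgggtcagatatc
Trdv5: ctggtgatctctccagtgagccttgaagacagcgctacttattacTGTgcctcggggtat
Trdv2-2: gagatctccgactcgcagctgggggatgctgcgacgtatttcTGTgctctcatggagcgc
Trav17: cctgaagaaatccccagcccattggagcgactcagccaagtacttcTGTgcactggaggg
Trav15-2-dv6-2: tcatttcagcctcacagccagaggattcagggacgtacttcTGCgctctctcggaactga
Trdv1: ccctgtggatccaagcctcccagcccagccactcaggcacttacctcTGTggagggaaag
Trav2: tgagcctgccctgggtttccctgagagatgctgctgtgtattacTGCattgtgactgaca
Trav21-dv12: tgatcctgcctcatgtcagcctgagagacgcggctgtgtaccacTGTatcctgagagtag
Names with dv belong to segments that can serve in alpha and in delta chains. Trdv4 and Trdv5 were the most distinct of the 8, sharing 55.3% and 55.5% of their bases with the nearest other annotated V segment, while Trav15-2-dv6-2 shared 97.6% with Trav15n-2.

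The delta constant region Trdc (chromosome 14, GRCm38, 54142851 to 54148868) encodes the invariable part of the delta chain and held 75.05% to 80.95% of the reads of all 39 segments. Its normalised reads were 10154, 10677 and 8015 in wild type replicates 1 to 3, against 19337, 17111 and 13932 in mutant replicates 1 to 3, an order used for all values that follow. The lowest mutant library lay above the highest wild-type library. Trdc rose by 0.80 ± 0.14 (SE) on the log2 scale (95% confidence interval 0.48 to 1.12), at an adjusted p of 0.00436 with limma.

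The alpha constant region Trac (54220521 to 54224206) lies at the far end of the locus and encodes the invariable part of the alpha chain. It had 224.8, 138.5 and 186.8 normalised reads in the wild type against 296.5, 290.6 and 256 in the mutant. These groups did not overlap either. The log2 change of 0.64 ± 0.22 did not pass with limma (adjusted p = 0.07) or edgeR (0.0815), and passed with DESeq2 (0.0387) and with library weights (0.0378). Per kb of exon, the level of Trdc in the wild type was 2488 normalised reads and that of Trac 196, so that the delta constant region exceeded the alpha one in every library.

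Of the 5 listed delta variable segments 3 rose and the others did not pass, with a median log2 change of 0.90 against 0.03 over all tested genes. Trdv4 (54074905 to 54075515), which is known from the invariant receptors of epidermal gamma-delta T cells, had 10.6, 2.86 and 5.34 normalised reads in the wild type against 97.1, 80.6 and 43.0 in the mutant. Its log2 change was 3.43 ± 0.54 (adjusted p = 0.00237). The groups were well apart, although Trdv4 reached the mean needed for the test through its mutant libraries, as did Trdv3, Trav14-3 and Trav23. It was also called when no minimum mean was set, among listed genes that all had at least 20 reads over the 6 libraries.

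Trdv5 (54148662 to 54149294) is the V segment on the opposite strand just beyond Trdc, joined by inversion. It had 270.4, 213.9 and 218.9 normalised reads in the wild type against 613.1, 502.5 and 528.5 in the mutant (on the log2 scale a change of 1.22 ± 0.17, adjusted p = 0.00136). All mutant libraries exceeded all wild-type libraries. Trdv5 shares 207 of its 438 exonic bases with the last exon of Trdc on the other strand, and the library kit does not record strand. Whether reads of Trdc entered its count was not tested.

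Trdv2-2 (53960944 to 53961602) rose from 163.3, 149.9 and 140.6 to 332.4, 249.0 and 274.7 normalised reads (log2 change 0.90 ± 0.20, adjusted p = 0.0116), with no overlap. It shares 105 exonic bases with the antisense gene model Gm43647, which had 27.6 ± 10.2 and 51.6 ± 20.7 normalised reads (SD, n = 3 each) and was not called. Trdv1, by contrast, had 113.5, 74.5 and 75.6 in the wild type against 100.3, 122.2 and 110.3 in the mutant (on the log2 scale a change of 0.36, 95% confidence interval -0.24 to 0.95), and its groups overlapped. The pseudogene Trdv3 had at most 23.2 normalised reads in any library and was not called (log2 change 0.89 ± 0.66).

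The 2 joining segments of delta lie between the D segments and Trdc. Trdj2 (54136779 to 54136837), the one nearer to Trdc, had 19.1, 37.2 and 40.9 normalised reads in the wild type against 115, 97.8 and 113.6 in the mutant, a 3.36-fold ratio (log2 change 1.78 ± 0.35, adjusted p = 0.00685). Trdj1 (54123138 to 54123188) had more reads, at 218.4, 202.4 and 116.6 against 329.3, 395.7 and 238.3. Its mutant libraries all lay above the wild type, but the change of 0.86 ± 0.28 did not pass (adjusted p = 0.0593). It passed with DESeq2 (0.0147), the replicate block (0.0234), library weights (0.0408) and equal library totals (0.0485), and without mutant replicate 3 (0.0401).

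The groups overlapped for both D segments. Trdd1 had 13.8, 21.0 and 16.0 normalised reads in the wild type against 20.1, 19.9 and 16.5 in the mutant. Trdd2 had 27.6, 29.6 and 11.6 against 32.7, 30.8 and 14.3. Their log2 changes were 0.16 (95% confidence interval -0.83 to 1.15) and 0.19 (-0.97 to 1.36), so that a change of the size of Trdc lies within both intervals.

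**Figure D2:**
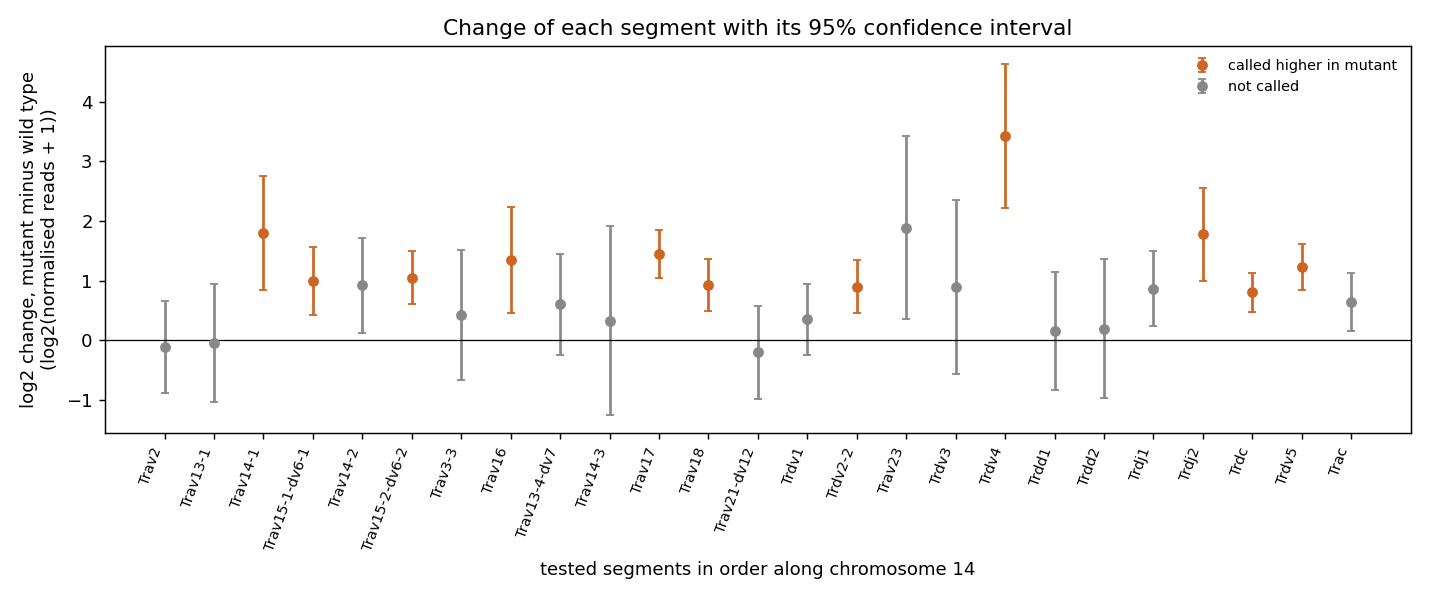
Log2 change (mutant minus wild type, on log2 of normalised reads plus 1) of the 25 tested segments in order along chromosome 14, with 95% confidence intervals from limma, called segments in orange and others in grey. Trdv4 stands highest at 3.43, and the 3 points below 0 are Trav2, Trav13-1 and Trav21-dv12.

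Among alpha variable segments 25 of 128 annotated ones were listed and 14 tested, of which 6 rose and the others did not pass (median log2 change 0.92). At an unadjusted p under 0.05 no member was lower, with limma, edgeR, DESeq2 or voom. Trav17 (53806639 to 53807115) had the most reads of the Trav, with 667, 639.8 and 479.6 normalised reads in the wild type against 1744, 1814 and 1310 in the mutant. The log2 change was 1.44 ± 0.18 (adjusted p = 0.000674), the smallest p of all segments. Trav17 carries no dv name and shared 72.1% of its bases with the nearest other V segment.

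Trav15-2-dv6-2 (53649404 to 53649994) came second, at 403, 413.5 and 310.5 against 949.8, 806.7 and 603.5 (log2 change 1.05 ± 0.20, adjusted p = 0.00575). Trav18 (53831105 to 53831827) had 152.7, 145.1 and 142.4 in the wild type against 240.6, 323.2 and 281.3 in the mutant (0.93 ± 0.20, adjusted p = 0.00992). Neither showed overlap between the genotypes. Both stayed called in all 6 leave-one-out fits, at adjusted p of at most 0.0237 and 0.0457.

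The other 3 calls were each lost in some fits with 1 library left out. Such fits have fewer libraries, and calls over all genes fell too, from 3352 to between 1905 and 2788. Trav15-1-dv6-1, the close relative of Trav15-2-dv6-2, had 189.8, 100.3 and 118.3 against 260.7, 247.2 and 276.9 (log2 change 0.99 ± 0.25, adjusted p = 0.0235). It held its call only without wild type replicate 1 among the 6 leave-one-out fits (adjusted p 0.00986, and up to 0.0886 otherwise). Trav14-1 rose from 14.8, 24.8 and 9.79 to 47.5, 57.0 and 64.0 (1.79 ± 0.43, adjusted p = 0.0172), and missed the threshold without mutant replicate 2 (0.0568) or 3 (0.0543). Trav16 rose from 12.7, 25.8 and 22.2 to 59.1, 42.6 and 51.9 (1.34 ± 0.40, adjusted p = 0.0427), and missed the threshold in each of the 6 leave-one-out fits (0.0616 to 0.117), with the replicate block (0.0718) and with library weights (0.0517).

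The alpha variable segments that did not pass fell into those with separate and those with overlapping groups. Trav14-2 had 24.4, 37.2 and 23.1 against 44.3, 62.5 and 54.1 (log2 change 0.92 ± 0.36, adjusted p = 0.103), and the log2 changes of Trav13-4-dv7 and Trav23 were 0.60 ± 0.38 and 1.89 ± 0.69, each without overlap. Trav2, the tested V segment farthest from Trdc, had 39.2, 38.2 and 44.5 against 29.5, 47.1 and 37.5, and overlapped. So did Trav21-dv12, at 62.6, 49.7 and 48.9 against 48.5, 63.4 and 32.0. The log2 changes of Trav2, Trav21-dv12 and Trav13-1 were -0.11, -0.20 and -0.05, with 95% confidence intervals that reached up to 0.65, 0.57 and 0.94. Trav3-3 (0.42 ± 0.49) and Trav14-3 (0.32 ± 0.71) overlapped as well.

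The listed Trav were divided by position into the 9 farthest from Trdc, the 8 that follow and the 8 nearest. Among the farthest 9, 3 were tested and 1 rose, with a median log2 change of -0.05. In the middle set 3 of 5 tested segments rose (median 0.99), and in the nearest set 2 of 6 rose (median 0.76). Summed over all listed Trav of each set, the mutant exceeded the wild type 1.60-fold, 2.02-fold and 2.38-fold in that order. The last ratio rested on Trav17, without which it was 1.63-fold, and the order no longer rose. Across the 25 tested segments, which share the 6 libraries and differ in depth, position and log2 change had a Spearman rho of 0.10. Trav with a dv name summed to 628 ± 79.1 and 1186 ± 176 normalised reads (SD, n = 3 each), and those without one to 931 ± 92.6 and 2239 ± 251. Of the 5 listed Trav with the suffix d or n, which mark the copies of the duplicated V clusters, 0 had enough reads for a test.

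Of 60 annotated Traj 3 were listed, Traj61, Traj60 and Traj59, which are those nearest to Trdc. The T early alpha promoter, which drives germline transcription of the J-alpha segments, lies upstream of them. Traj59 had 1.06, 2.86 and 4.45 normalised reads in the wild type against 9.50, 7.24 and 17.6 in the mutant, without overlap. The pseudogenes Traj60 (0, 2.86 and 0.890 against 4.22, 6.34 and 19.9) and Traj61 (3.18, 0.955 and 6.23 against 4.22, 7.24 and 23.2) were as rare. All 3 were too rare for the main test, and mutant replicate 3 held the highest value of each. In all, 14 segments fell below the mean of 10. With no minimum set, so that every listed segment entered the fit, 35 of 39 log2 changes were above 0 (89.7%, against 52.8% of all 21135 genes), with a median of 0.89, and 11 were called higher and 0 lower (6.45% of all genes were called higher). All listed genes had at least 20 reads over the 6 libraries. Some rare segments, such as Traj60 (0, 3 and 1 reads against 4, 7 and 18), reached that level only with their mutant reads. The signs of such segments are therefore not independent of their being listed.

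Since Trdc itself rose, each segment was set against the Trdc reads of its own library. Of 24 tested segments, 6 had more reads per 1000 Trdc reads in every mutant library than in any wild-type library, 4 had fewer, and 14 overlapped. Set against Trdc in the same way, 1.44% of the other 17814 tested genes lay higher in every mutant library and 60.7% lay lower. Trdv4 had 1.04, 0.268 and 0.666 against 5.02, 4.71 and 3.09 reads per 1000 Trdc reads. Trav17 had 65.7, 59.9 and 59.8 against 90.2, 106 and 94.0, and Trdj2 1.88, 3.49 and 5.11 against 5.95, 5.71 and 8.16. Trav14-1, Trav15-2-dv6-2 and Trdv5 were the other segments with higher ratios in the mutant, with differences of 0.99, 0.25 and 0.42 in the log2 ratio.

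The 4 segments with lower ratios were Trav2, Trav13-1, Trav21-dv12 and Trdd1. Trdd1 had 1.36, 1.97 and 2.00 against 1.04, 1.16 and 1.19 reads per 1000 Trdc reads, and Trav21-dv12 6.16, 4.65 and 6.11 against 2.51, 3.70 and 2.30. Trac held 22.1, 13.0 and 23.3 in the wild type against 15.3, 17.0 and 18.4 in the mutant, which overlap. For the 10 segments without overlap the exact two-sided permutation p was 0.1, the smallest that 3 against 3 libraries can give, so none of these differences from Trdc can pass a threshold of 0.05.

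**Figure D3:**
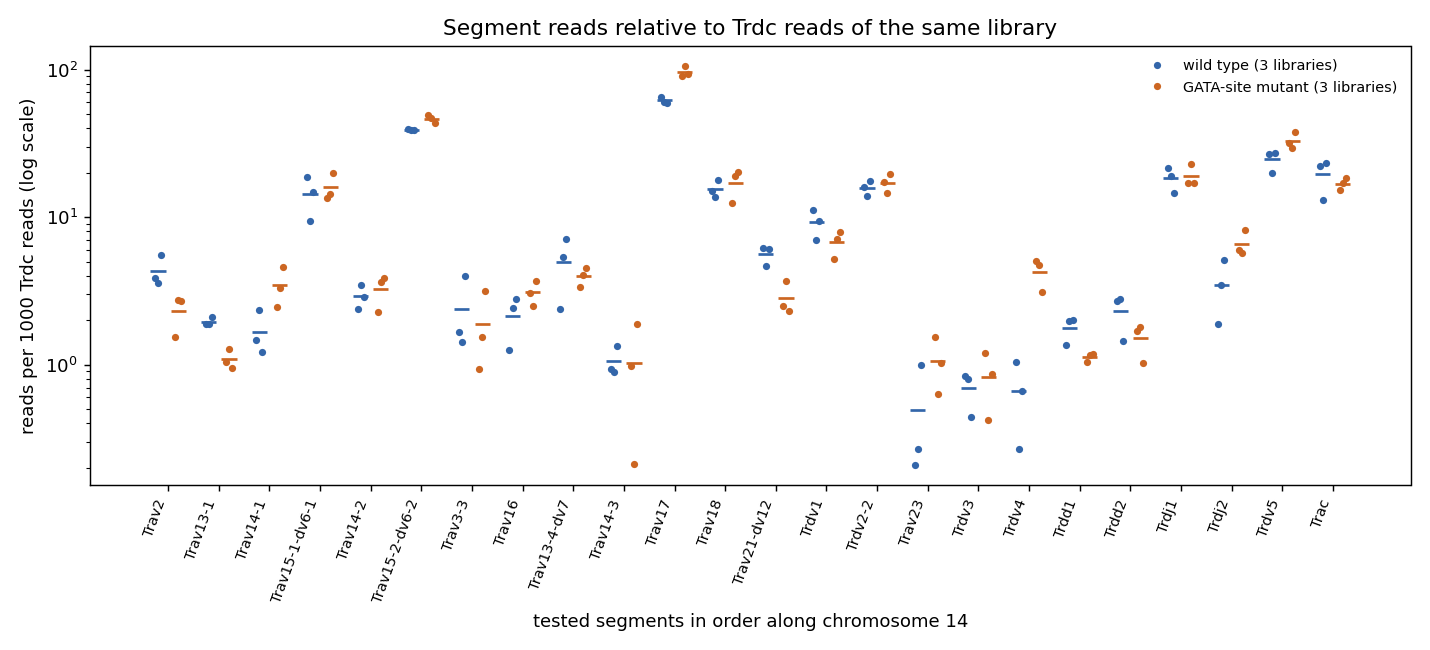
Reads of each tested segment per 1000 Trdc reads of the same library (log axis), in 3 wild-type (blue) and 3 mutant (orange) libraries, in order along chromosome 14, with a line at each group mean. Trdv4 lies at 0.268 to 1.04 in the wild type against 3.09 to 5.02 in the mutant, and Trac overlaps.

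Other gene models inside the locus were examined beside the segments. Of 27 annotated ones 10 were tested, 3 rose and the others did not pass. B230359F08Rik, among those that did not pass, is annotated as a V gene. Its symbol kept it out of the segments, so counts and identities of V segments leave it out. It had 183.4, 125.1 and 147.7 normalised reads in the wild type against 241.7, 208.2 and 182.0 in the mutant, which overlap (log2 change 0.48 ± 0.23, adjusted p = 0.17). Gm43434, an antisense model that runs from within Trdc across Trdj2, had 60.4, 60.2 and 73.0 normalised reads in the wild type against 167.8, 237.2 and 173.2 in the mutant (on the log2 scale a change of 1.55 ± 0.25, adjusted p = 0.00244). It shares 96 exonic bases with Trdc. Gm30275, antisense across Trdv4, the D segments and Trdj1 with no shared exonic base, had 114.5, 115.5 and 109.4 against 291.3, 249.0 and 260.4 (1.23 ± 0.19, adjusted p = 0.00232). Because the library kit does not record strand, reads of either strand may count towards both antisense models. Whether antisense RNA itself rose was not tested. The olfactory receptor gene Olfr1507, among the V segments, rose by 1.05 ± 0.30 (adjusted p = 0.0336), and stayed called in 1 of the 6 leave-one-out fits, that without wild type replicate 1 (0.107 at most in the others). All of these models were named after their values were seen.

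Outside the locus, within 1 Mb of its ends, 43 protein-coding genes other than olfactory receptors were tested. Of these 2 rose and 1 fell, with a median log2 change of -0.02. Dad1, the nearest gene beyond Trac and a subunit of the oligosaccharyltransferase, had 6849, 6849 and 6136 normalised reads in the wild type against 7086, 5830 and 5354 in the mutant (on the log2 scale a change of -0.13 ± 0.12, adjusted p = 0.494). Sall2, the nearest listed gene on the V side, had a log2 change of 0.24 ± 0.22 and did not pass either. Farther out, the arginine methyltransferase gene Prmt5 fell by 0.77 ± 0.09 on the log2 scale (adjusted p = 0.000652) and the cadherin gene Cdh24 rose by 1.01 ± 0.20 (adjusted p = 0.00702). Lrp10 rose by 0.33 ± 0.10 (adjusted p = 0.0395); each of the 6 leave-one-out fits (0.0531 to 0.125) and the replicate block (0.062) ended that call.

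Of 10 genes of the chains that pair with alpha or delta 8 rose and the others did not pass, with a median log2 change of 0.47. Most of these calls were lost in some fits with 1 library left out, which have fewer libraries. Calls numbered 8 without mutant replicate 3, but 2 without mutant replicate 2. They numbered 3 without mutant replicate 1 or wild type replicate 1 or 2, and 4 without wild type replicate 3. The gamma constant region Tcrg-C4 had the smallest p (0.90 ± 0.17, adjusted p = 0.00641), followed by Cd3d (0.68 ± 0.13, adjusted p = 0.00651) and the beta constant region Trbc2 (0.41 ± 0.10, adjusted p = 0.0203). Trbc2 lost its call without mutant replicate 2 or any 1 wild-type library (adjusted p up to 0.0648). The pre-TCR alpha gene Ptcra, which stands in for the alpha chain at this stage, had a log2 change of 0.32 ± 0.14 and did not pass (adjusted p = 0.147).

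Among 20 factors that bind the alpha and delta enhancers or organise the locus 5 rose (3 without wild type replicate 2) and the others did not pass, with a median log2 change of 0.19. Lef1 (1.16 ± 0.11, adjusted p = 0.000187), Gata3 (0.64 ± 0.10, adjusted p = 0.00208) and Myb (0.49 ± 0.09, adjusted p = 0.00636) had the smallest p. The cohesin subunit gene Rad21 (0.26 ± 0.13) and Ctcf (0.12 ± 0.09), both of chromatin looping, did not pass. Egr1 also rose (1.44 ± 0.43, adjusted p = 0.0424), although its groups overlapped and edgeR (0.0594) and DESeq2 (0.113) did not call it. Of 16 genes of V(D)J recombination 2 rose and 2 fell (median 0.04). The polymerase mu gene Polm, which acts in end joining, rose by 1.52 ± 0.19 (adjusted p = 0.000718). Xrcc5, which encodes the Ku80 subunit, fell by 0.79 ± 0.10, and the recombinase gene Rag1 fell by 0.58 ± 0.10, on the log2 scale (adjusted p = 0.00092 and 0.0035). The ligase gene Lig4 was the other that rose (0.50 ± 0.13, adjusted p = 0.0263), a call that went without mutant replicate 2 or wild type replicate 1 or 2 (up to 0.101).

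Most of the tested markers of gamma-delta T cells rose. Of 9 markers other than Trdc and Tcrg-C1 all were listed and 7 tested, of which 6 rose (5 without wild type replicate 1 or 2) and Id3 did not pass (log2 change 0.09 ± 0.21, adjusted p = 0.807). Their summed level was 13317 to 14611 normalised reads in the wild type against 19253 to 24333 in the mutant. Cd163l1, the scavenger receptor gene of gamma-delta cells, changed by 1.08 ± 0.17 (adjusted p = 0.00231) and the lineage factor gene Sox13 by 0.61 ± 0.12 (adjusted p = 0.00639). Zbtb16 and Il23r were too rare for the test. Zbtb16 was at 0 in 1 wild-type library and at most at 21.7. Il23r, the receptor gene of interleukin 23, lay lower in the mutant, at 9.54, 4.77 and 12.5 against 0, 0 and 1.10. The part of such cells in the segments' change was not tested.

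Markers of double-positive thymocytes, the stage that rearranges alpha, did not move 1 way. Of 10 markers 9 were listed and tested, 2 rose and 2 fell (1 or 2 in each direction with 1 library left out), and they summed to 49375 to 57374 normalised reads in the wild type against 56993 to 65028 in the mutant. Cd4 stood at 65.6 in the wild type against 33.7 in the mutant and Cd8a at 45.7 and 25.6, neither called (adjusted p = 0.093 and 0.174). Markers of mature T cells, of which 6 of 7 were listed, summed to 60392 to 70328 and 80668 to 101443. The part of these cells in the segments' change was not tested either.

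The genes outside the locus with the profile most like that of Trac over the 6 libraries were Hsdl2, Ppp4r1l-ps and Crebrf. Their log2 values had Pearson correlations with Trac of 0.995, 0.989 and 0.985 among 13358 genes with a mean of at least 50. All of these share the difference between the genotypes.

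The V segments that the table lists can be set beside those it does not by their likeness to other copies. The 30 listed V segments had a median identity of 96.5% with the nearest other annotated V segment, and 13 of them (43.3%) reached 97%. The 104 V segments not listed had a median of 99.4%, with 78 (75.0%) at 97% or more and 42 identical to another over the shorter sequence. The 19 tested V segments had a median of 92.2%, and 0 of them had an identical copy. How the authors' counting treated reads that fit several copies is not given in the sources used here, and values of the Trav3, Trav13, Trav14, Trav15 and Trav16 segments, which have close copies, are uncertain to that extent.

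**Figure D4:**
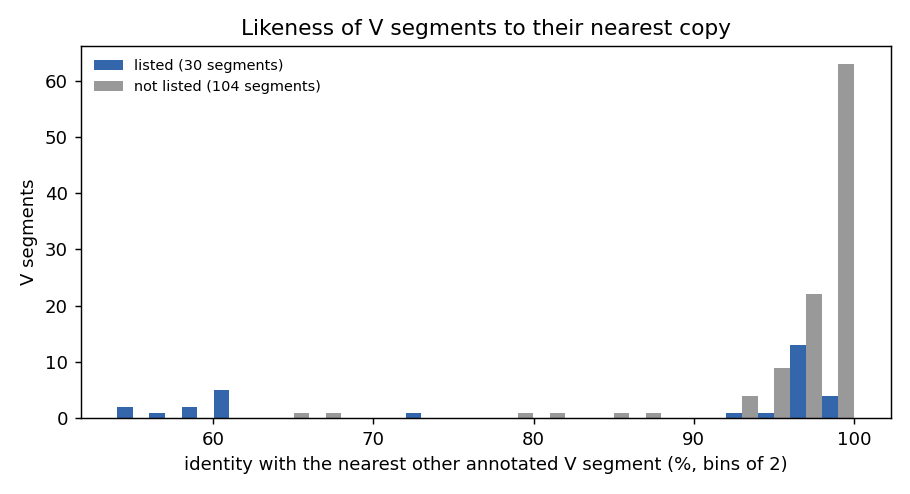
Number of V segments (vertical axis) by identity with the nearest other annotated alpha or delta V segment (percent, horizontal axis, bins of 2 with the blue and grey bars side by side), for 30 listed (blue) and 104 not listed (grey) segments. The grey bars pile up in the last bin, while the blue bars are spread from 55.3% upwards.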

How the data were processed

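The authors deposited 1 signal value per gene and library, in the form of read counts divided by the library's size factor. The builds mm10 and GRCm38 and the tools DESeq2 1.20.0, featureCounts and STAR 2.5.3 are named, per the submitters' processing notes. Per the labels' protocols, cDNA was amplified with SMART-Seq v4 and fragmented with Nextera XT, which do not record strand. Amplified cDNA can make rare transcripts vary more. Values were turned back into reads by the smallest step in each library, and 100.0% of 126810 came out whole within 0.1 reads, and each gene had at least 20 reads in all. Symbols and positions came from GENCODE M21 for 21100 of 21135 genes by gene identifier, and the other 35 held 0.008% of the reads.

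The test was limma 3.58.1 in R 4.3.3 on log2(value + 1) with a trended eBayes prior, comparing mutant with wild type among genes whose mean reached 10, two-sided with Benjamini-Hochberg adjustment at 0.05. Adjusted p-values are from it unless edgeR 4.0.16 or DESeq2 1.42.0, run on the recovered reads, is named. Fold changes are ratios of mean normalised reads. Log2 changes understate rare genes. Errors are standard errors of the fit or, for levels, SD over 3 libraries. Methods were tested on simulated counts. Segments and gene lists were chosen with earlier results of these data known. Named were the constant, delta and most abundant or best-ranked V segments, the nearest neighbours, up to 3 called genes per list and the 3 closest profiles to Trac; any other gene was chosen after its values were seen. Identity is the share of the shorter transcript left after the edits needed to fit it into the longer.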

Additional observations from a re-analysis of the deposited data

How the results depend on the processing

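The alternatives were other pseudocounts, filters, scaling and variance models, library weights, count models on recovered reads, the replicate block and leaving out 1 library. Trdc stayed called higher under all 17 (log2 change 0.68 to 0.93, adjusted p 3.69e-06 to 0.0179). Segments called higher numbered 8 to 13 in place of 11, and 8 to 10 with 1 library left out, and 0 were called lower in any. Trav calls numbered 3 to 5 with 1 library left out, at 3 without mutant replicate 2 or 3, in place of 6. Trac was called with DESeq2 (0.62) and library weights (0.74), and in no other alternative (0.45 to 0.80 with 1 library left out, adjusted p 0.0378 to 0.229 over all alternatives). Genes called across the table numbered 1905 without wild type replicate 2, the lowest of 1905 to 2788 with 1 library left out, against 3352. Some uncalled changes near 0 turned sign. Over the fits with 1 library left out, Trav2 ran from -0.28 to 0.05 (above 0 without mutant replicate 1), Trav13-1 from -0.18 to 0.16, Trav21-dv12 from -0.43 to 0.05 and Trav14-3 from -0.18 to 1.10 (these 3 turned without mutant replicate 3), and Trdd2 from -0.22 (wild type replicate 3 left out) to 0.56, with -0.01 when mutant replicate 1 was left out. Library weights put Trav2 at 0.01 and Trav14-3 at -0.08, and equal totals put Trav13-1 at 0.01. The cause was not tested. Of 377 values of the other segments under an alternative, 348 kept direction and side of the threshold. Deviations of same-numbered libraries correlated by -0.022, -0.066 and -0.01, so no effect shared by same-numbered libraries was visible. These values cannot settle whether the libraries were prepared as pairs. With the replicate block 11 segments were called, 10 of them the same, with Trav16 lost and Trdj1 gained, and 3066 genes in all. Depth limits the 14 segments under a mean of 10.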
